A study of Mus musculus with 18 samples.

Results

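Heat shock proteins and chaperones were described as 49 protein-coding genes in RNA of CD8 T cells sorted from mouse spleen cultures. They were chosen by gene name, covering the HSP90, HSP70, HSP110, HSP60, HSP10 and small HSP genes, the CCT chaperonin and the J-domain genes, and by a normalized value of at least 1, called the floor here, in 3 or more of 18 libraries. Of 80 genes with such names 31 stayed below the floor, and the 49 belong to 23414 genes in the table and to 10257 past the same floor. Hspa1a, Hspa1b and Dnajb4 reached the floor in exactly 3 libraries. Just outside it were Hspb9, at the floor in 2 libraries with a highest value of 1.46, and Dnaja4, Dnajc24 and Hspb1, each at the floor in 1. Hspbap1, named for binding the small HSP Hspb1, stayed below the floor in all 18 libraries, with a highest value of 0.534.

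Chaperones bind unfolded or partly folded proteins and help them reach or keep their shape. HSP70 proteins work in cycles of ATP hydrolysis that J-domain proteins start and that nucleotide exchange factors, among them the HSP110 proteins, reset. HSP90 acts late, on clients such as kinases and steroid receptors, and includes the T cell kinase Lck among its known clients. The CCT ring folds actin and tubulin, and HSP60 with its lid HSP10 folds proteins inside mitochondria. The heat shock factor HSF1 drives the inducible cytosolic members, and the unfolded protein response drives those of the endoplasmic reticulum (ER). A T cell that meets its antigen grows, makes protein at a high rate and divides, which raises the demand for folding.

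The cells came from P14 mice, whose transgenic T cell receptor recognises the gp33 peptide. One genotype was wild type (WT). The other lacked TrIP, a membrane inhibitor of PI3K encoded by Pik3ip1, through a knockout (KO) specific to CD8 T cells. Splenocytes of all 6 groups stayed 24 h in culture with 50 U/ml of IL-2 and 2 ng/ml of IL-12, then CD8 T cells were sorted. Cultures were left without peptide, or received 100 ng/ml of gp33, alone or together with IC87114, a PI3K delta inhibitor, at 10 µM. Each group had 3 libraries. The labels do not name the Cre line or say whether libraries came from separate animals, so p-values measure the spread between these libraries, which may be technical.

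Promoter sequences are shown for 5 members that hold an element searched here, 3 of the heat shock kind and 2 of the ER. They come from RefSeq on GRCm38.p6 and run from 250 bases before to 50 bases after the gene start. Of the 49 members 39 had such a window, 55 windows in all. The heat shock element searched was 2 alternating units, GAANNTTC or TTCNNGAA, and its longer form of 3 units, GAANNTTCNNGAA or TTCNNGAANNTTC, which contains the shorter. The ER stress element was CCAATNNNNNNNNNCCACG, which contains a CCAAT box. Both strands were searched.
Hspe1, with heat shock elements in capitals, chr1:55087898-55088197, plus strand, in a region that lies head to head with Hspd1: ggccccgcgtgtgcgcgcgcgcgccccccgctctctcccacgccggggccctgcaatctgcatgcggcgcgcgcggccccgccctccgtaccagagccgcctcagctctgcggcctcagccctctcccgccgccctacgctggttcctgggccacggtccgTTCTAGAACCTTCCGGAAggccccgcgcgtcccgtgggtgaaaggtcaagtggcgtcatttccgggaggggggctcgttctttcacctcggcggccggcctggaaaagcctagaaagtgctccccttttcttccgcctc
Hsph1, with heat shock elements in capitals, chr5:149636266-149636565, minus strand: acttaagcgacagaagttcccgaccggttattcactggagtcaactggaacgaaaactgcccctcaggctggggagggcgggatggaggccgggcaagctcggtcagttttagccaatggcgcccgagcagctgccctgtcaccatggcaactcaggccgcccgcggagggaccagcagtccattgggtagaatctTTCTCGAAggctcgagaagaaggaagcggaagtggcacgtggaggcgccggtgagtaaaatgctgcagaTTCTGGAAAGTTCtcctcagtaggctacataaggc
Hspa1b, with a heat shock element of 2 units in capitals, chr17:34959189-34959488, minus strand: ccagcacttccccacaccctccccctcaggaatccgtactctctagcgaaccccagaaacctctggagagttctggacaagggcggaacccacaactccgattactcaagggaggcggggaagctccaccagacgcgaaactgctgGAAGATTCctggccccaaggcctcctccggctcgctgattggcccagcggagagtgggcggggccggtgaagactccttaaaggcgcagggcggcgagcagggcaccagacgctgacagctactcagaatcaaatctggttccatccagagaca
Hspa5, with the ER stress element in capitals, chr2:34771840-34772139, plus strand: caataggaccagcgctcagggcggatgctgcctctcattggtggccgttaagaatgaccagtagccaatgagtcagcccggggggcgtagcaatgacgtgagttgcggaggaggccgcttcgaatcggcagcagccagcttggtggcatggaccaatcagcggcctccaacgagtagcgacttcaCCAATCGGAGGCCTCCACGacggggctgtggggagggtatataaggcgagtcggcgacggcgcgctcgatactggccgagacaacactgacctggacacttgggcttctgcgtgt
Hsp90b1, with both ER stress elements in capitals, chr10:86705395-86705694, minus strand: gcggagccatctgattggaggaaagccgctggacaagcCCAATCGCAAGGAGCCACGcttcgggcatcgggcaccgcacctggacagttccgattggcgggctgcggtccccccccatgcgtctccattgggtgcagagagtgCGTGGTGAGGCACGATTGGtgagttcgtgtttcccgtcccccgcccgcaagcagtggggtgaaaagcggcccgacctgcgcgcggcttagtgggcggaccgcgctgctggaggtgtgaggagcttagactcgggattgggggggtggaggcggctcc

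The 3-unit heat shock element was in 6 of the 55 windows, those of Hspd1, Hspe1, Hsph1 and Dnajb6, and in 0.603% of the 32851 windows of all genes. The 2-unit form was in 15 of the 55 and in 15.1% of all windows. ER stress elements were in 3 of the 55, those of Hspa5, Hsp90b1 and Dnajc3, and in 0.119% of all. Hspa8, Hsp90aa1 and Hsp90ab1 had no window, and that of Dnajb9 held no heat shock or ER stress element. A match describes these letters and does not show that a factor was bound.

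Values below are normalized values, turned back to a linear scale from deposited log values whose base and offset are not stated and which were read as log2(value + 1). Their sequencing depth is unknown. Because values fall with the length of a gene on the genome, each gene is compared only with itself across groups. Log2 fold changes are differences of log2(value + 1), which understate the change of low genes. Standard errors (SE) and adjusted p come from one limma model of all 18 libraries, with Benjamini-Hochberg adjustment over the 10257 genes, and a gene was called higher or lower at adjusted p under 0.05. Of the 49 members, 40 reached the floor in cultures both with and without gp33 and are counted below. The other 9 reached it on one side only, so their values are given without a test. A single number in parentheses after a gene is its log2 fold change.

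Pik3ip1 RNA, which the KO label would place lower, was higher in the libraries labelled KO. It was 31.0, 33.4 and 28.5 in WT libraries without peptide and 74.6, 74.9 and 78.9 in those labelled KO. Pik3ip1 was 0.863, 0.773 and 0.655 against 1.53, 1.67 and 1.63 with gp33, and 0.656, 0.616 and 0.624 against 2.51, 2.58 and 2.18 with inhibitor. The groups did not overlap in any condition. The table does not separate the deleted part of the gene, so these values do not check the deletion, and genotype is given as labelled. All 10 CD8 T cell markers passed the floor and 0 of 4 CD4 markers did. CD8 sums without peptide were 2757 to 2943 in WT and 2877 to 3177 in KO-labelled libraries. With gp33 alone they were 1139 to 1214 and 1419 to 1604, and with inhibitor 1590 to 2826 and 1755 to 1837. Values depend on gene length, so sums of different lists do not give shares of cells. Of 11 B cell markers 9 passed the floor, with summed values of 3384 to 7367 in WT and 1892 to 21178 in KO-labelled libraries without peptide, and 178 to 240.3 in WT and 239.7 to 1046 in KO-labelled libraries with gp33 alone. Of 10 myeloid markers 5 passed it, with summed values without peptide of 2.85 to 33.2 in WT and 82.4 to 171 in KO-labelled libraries, and with gp33 alone of 5.48 to 7.27 and 11 to 22.2. Of 6 NK cell markers 3 passed, Tyrobp, Fcer1g and Eomes, while Ncr1, Klrb1c and Klra8 did not. Sums of this list without peptide were 3.09 to 4.96 in WT and 16.6 to 18.8 in KO-labelled libraries. With gp33 alone they were 1.59 to 1.94 and 4.87 to 5.26, and whether they reflect NK cells was not tested. With gp33 alone the CD8, myeloid and NK sums did not overlap between genotypes. These move with gp33 and with genotype, and their part in the results below was not tested. In bulk RNA, fewer cells of a type and less RNA per cell cannot be told apart. Replicate 2 of WT with inhibitor stood apart, with a mean correlation of 0.961 with its group, the lowest of the 18 libraries.

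**Figure D1:**
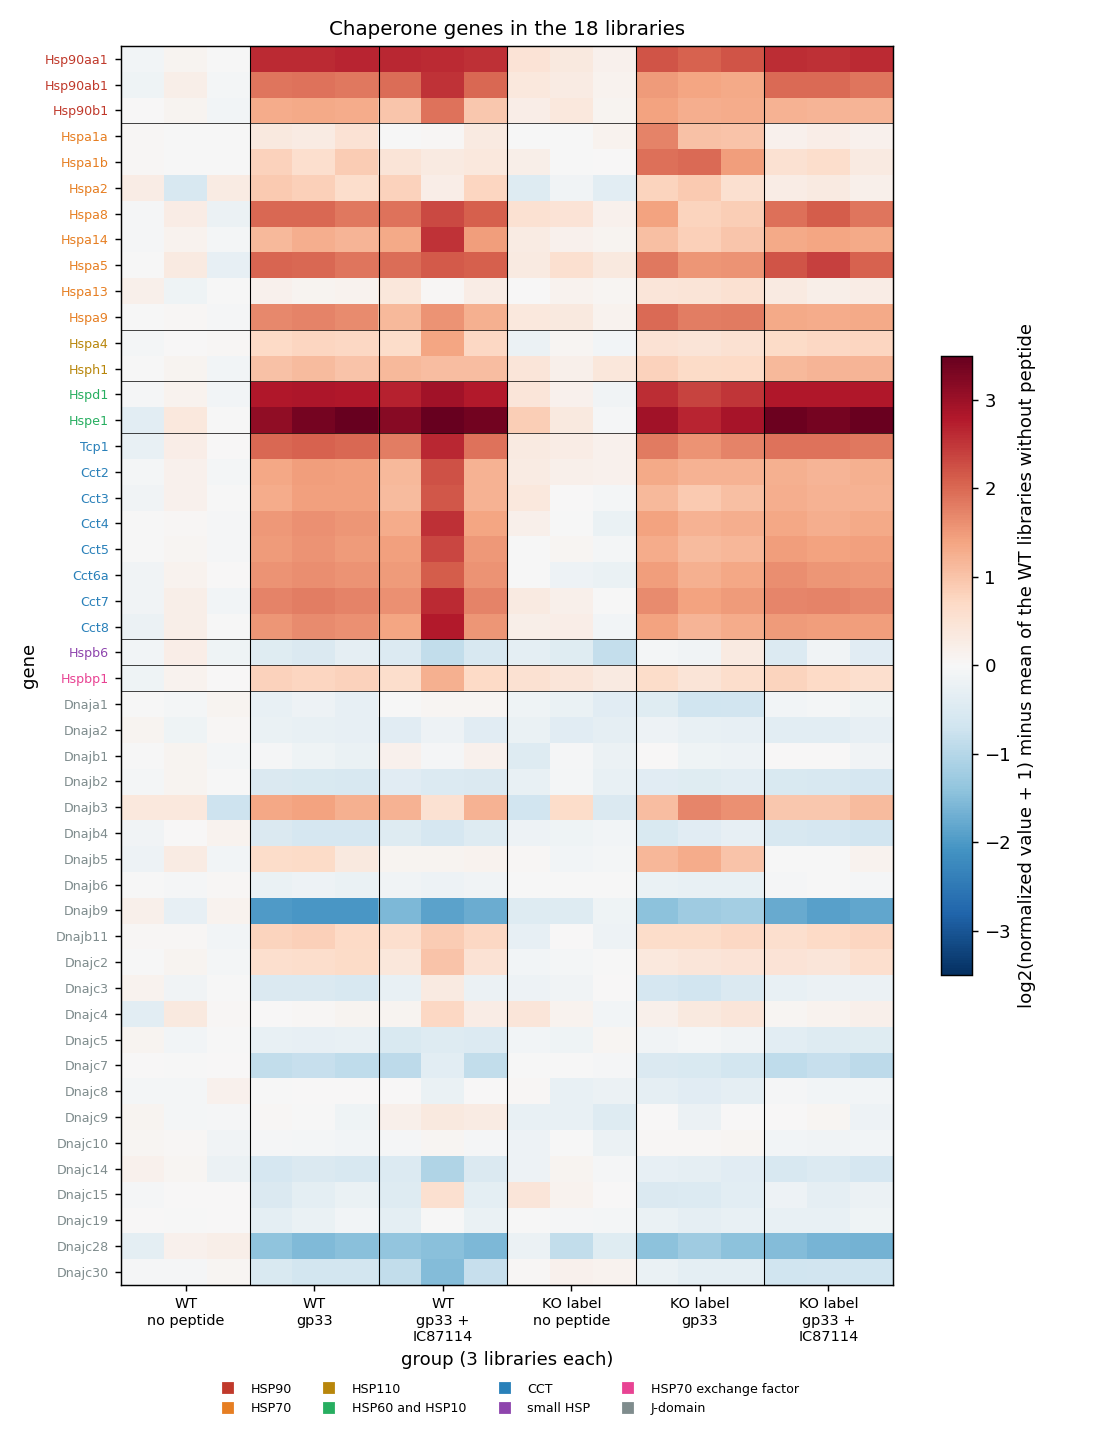
Heat map of members (rows, coloured by family) in the 18 libraries (columns, 3 a group); colour is log2(normalized value + 1) minus the mean of the 3 WT libraries without peptide. HSP90, HSP60, HSP10 and CCT genes are higher in the 12 libraries with gp33, most J-domain genes are not, Dnajb9 is lower, and replicate 2 of WT with inhibitor stands apart for the CCT genes.

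The first comparison asks how antigen alone changed the chaperones of WT cells. Addition of gp33 raised nearly every chaperone of the folding machines and lowered more J-domain genes than it raised. Of the 40 members 23 were called higher, against a background of 42.1% of all genes tested, and 11 were called lower, against 31.6%. The median log2 fold change was 0.92 over the 40 and 0.19 over all genes. Of the 21 members outside the J-domain family 20 were higher and 1 was lower. Of 19 J-domain members 3 were higher and 10 lower.

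In libraries labelled KO, gp33 gave 25 of the 40 higher, against 41.1% of all genes, and 8 lower, against 27.3%. The median was 0.61, against 0.20 over all genes. Outside the J-domain family 20 of 21 were higher and 0 lower, and among the 19 J-domain members 5 were higher and 8 lower. In WT 4 of the 34 calls ended when 1 library was left out, those of Hspb6 without replicate 2 of unstimulated WT or replicate 1 or 2 of stimulated WT (adjusted p up to 0.15), Dnajc19 without replicate 3 of unstimulated WT or replicate 1 or 2 of stimulated WT (adjusted p up to 0.101), Dnaja1 without replicate 3 of unstimulated WT or replicate 1 or 3 of stimulated WT (adjusted p up to 0.1) and Dnaja2 without replicate 1 of unstimulated WT (adjusted p 0.0582). In KO-labelled libraries 3 of the 33 did, those of Dnajc9 without replicate 3 of unstimulated KO label or replicate 1 or 3 of stimulated KO label (adjusted p up to 0.103), Dnajc10 without replicate 1 or 3 of unstimulated KO label or replicate 3 of stimulated KO label (adjusted p up to 0.089) and Dnajc19 without replicate 2 of stimulated KO label (adjusted p 0.0634).

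The mitochondrial HSP60 and HSP10 genes were among the members that moved furthest. Hspd1, the HSP60 chaperonin, was 9.90, 11.3 and 9.54 in WT libraries without peptide and 77.4, 79.3 and 76.7 with gp33, a ratio of means of 7.59 (log2 fold change of 2.81, SE 0.12, adjusted p 2.55e-11). In KO-labelled libraries it was 14.1, 11.6 and 9.32 without and 66.2, 56.9 and 62.2 with gp33 (log2 fold change of 2.32, SE 0.12, adjusted p 2.56e-10). All stimulated libraries lay far above all unstimulated ones in both genotypes.

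Hspe1, the HSP10 lid of the HSP60 barrel, was 9.67, 16.9 and 12.7 in WT libraries without peptide and 116, 139 and 160.3 with gp33 (log2 fold change of 3.33, SE 0.26, adjusted p 2.54e-08), and 24.0, 16.6 and 12.4 without and 104, 86.2 and 101 with gp33 in those labelled KO (log2 fold change of 2.44, SE 0.26, adjusted p 9.13e-07). Hspd1 and Hspe1 overlap on opposite strands, and the strand setting of the counting is not given in the sources used here.

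Hspa9, the mitochondrial HSP70 that pulls proteins through the inner membrane, was 3.52, 3.69 and 3.39 in WT libraries without peptide and 13.7, 14 and 13.2 with gp33 (log2 fold change of 1.69, SE 0.10, adjusted p 1.33e-09). In those labelled KO it was 4.83, 4.71 and 3.96 without and 17.1, 14.7 and 15.0 with gp33 (log2 fold change of 1.59, SE 0.10, adjusted p 3.38e-09). None of the 3 mitochondrial J-domain genes was called higher on its own value. Dnajc30 was lower in both genotypes (log2 fold change -0.61 in WT and -0.42 in KO-labelled libraries), Dnajc15 was called lower in KO-labelled libraries (-0.63, with -0.36 in WT), and Dnajc19 was lower in both (-0.22 and -0.23). Summed with its named pseudogene copies the value rose instead, by 0.71 in WT and 0.39 in KO-labelled libraries (adjusted p 0.000171 and 0.015 by limma). Because values depend on gene length, this sum does not weigh gene and copies by reads. It does not describe Dnajc19 itself. Dnajc30 overlaps Bud23 on the opposite strand in the GENCODE M21 annotation. Whether Dnajc15 differed between genotypes in its response was not called (log2 difference -0.27, adjusted p 0.504).

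Among cytosolic HSP90 genes, Hsp90aa1, the inducible form, was 7.80, 9.22 and 8.48 in WT libraries without peptide and 56.9, 57.4 and 58.7 with gp33, 6.78 times as high (log2 fold change of 2.63, SE 0.08, adjusted p 2.05e-12). In those labelled KO it was 12.2, 11.1 and 9.48 without and 42.4, 38.9 and 42.3 with gp33, 3.77 times as high (log2 fold change of 1.83, SE 0.08, adjusted p 1.04e-10). Both genotypes rose without overlap. The constitutive form Hsp90ab1 was 52.8, 68.3 and 56.5 without and 219.8, 224 and 214 with gp33 in WT (log2 fold change of 1.88, SE 0.13, adjusted p 7.45e-09), and 76.5, 71.9 and 64.3 without and 167, 154 and 150.1 with gp33 in KO-labelled libraries (log2 fold change of 1.14, SE 0.13, adjusted p 2.15e-06). The coding sequences of the pair are 75.7% identical in GENCODE M21.

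Hspa8, the constitutive cytosolic HSP70, was 39.1, 48.3 and 34.5 in WT libraries without peptide and 165, 166 and 148 with gp33, a ratio of 3.93 (log2 fold change of 1.96, SE 0.17, adjusted p 9.39e-08). In those labelled KO it was 58.5, 56.5 and 44.7 without and 108, 69.8 and 74.0 with gp33, a ratio of 1.58 (log2 fold change of 0.63, SE 0.17, adjusted p 0.00462). The 3 stimulated WT libraries all lay above the 3 stimulated KO-labelled ones. Hspa14, an HSP70 of the ribosome-associated complex, rose in both genotypes (1.19 and 0.78). Hsph1, an HSP110 exchange factor, was 1.00, 1.19 and 0.919 without and 3.15, 3.41 and 3.05 with gp33 in WT (log2 fold change of 1.05, SE 0.08, adjusted p 1.52e-08), and 1.74, 1.29 and 1.67 without and 2.57, 2.25 and 2.30 with gp33 in KO-labelled libraries (log2 fold change of 0.40, SE 0.08, adjusted p 0.000372). Hspbp1, which releases nucleotide from HSP70, rose in WT (log2 fold change of 0.79, SE 0.14, adjusted p 9.23e-05) and was not called in KO-labelled libraries (log2 fold change of 0.14, SE 0.14, adjusted p 0.357).

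The 8 CCT genes, which encode the subunits of one ring, moved as a block. Each was called higher with gp33 in both genotypes, with log2 fold changes of 1.40 to 2.03 in WT (median 1.57) and of 0.94 to 1.51 in KO-labelled libraries (median 1.27). Tcp1, the alpha subunit, which overlaps Mrpl18 and Acat3 on the opposite strand, was 11.7, 16.8 and 14.4 in WT libraries without peptide and 59.9, 62.2 and 60.1 with gp33, and 17.8, 17.3 and 15.9 without and 52.5, 44.1 and 49.3 with gp33 in those labelled KO. The means with gp33 were 4.25 and 2.87 times those without. For the other subunits the ratio in WT was 3.28 for Cct2, 3.25 for Cct3, 3.32 for Cct4, 2.93 for Cct5, 3.14 for Cct6a, 3.68 for Cct7 and 3.24 for Cct8. Within the block the ratios spanned a narrow range and no library without peptide reached a library with gp33, which held for 47.2% of all genes in WT and 45.1% in KO-labelled libraries. In KO-labelled libraries the ratios were 2.40 for Cct2, 2.22 for Cct3, 2.80 for Cct4, 2.36 for Cct5, 2.99 for Cct6a, 2.77 for Cct7 and 2.40 for Cct8.

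In the ER the members moved in both directions. Hspa5 (BiP), the HSP70 of the ER lumen, was 27.1, 34.6 and 22.2 in WT libraries without peptide and 115, 115 and 104 with gp33 (log2 fold change of 1.97, SE 0.14, adjusted p 9.44e-09), and 34.2, 40.9 and 34.8 without and 102, 82.7 and 84.2 with gp33 in those labelled KO (log2 fold change of 1.27, SE 0.14, adjusted p 1.45e-06). Hsp90b1 (GRP94), the HSP90 of the ER, rose by 1.31 in WT and 1.09 in KO-labelled libraries on the log2 scale. Dnajb11, a J-domain partner of BiP for folding, rose by 0.77 and 0.83 on that scale. The other ER J-domain genes did not rise in WT.

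Dnajb9 (ERdj4), a BiP partner that serves degradation of misfolded proteins and restrains the stress sensor IRE1, had the lowest log2 fold change of the 40 members tested in both genotypes. It was 28.2, 20.2 and 27.6 in WT libraries without peptide and 5.65, 5.30 and 5.33 with gp33 (log2 fold change of -2.02, SE 0.13, adjusted p 1.93e-09). In those labelled KO it was 17.9, 18.1 and 22.4 without and 8.71, 10.0 and 10.5 with gp33 (log2 fold change of -0.93, SE 0.13, adjusted p 1.15e-05). The stimulated WT libraries were the lower of the stimulated groups, without overlap. Dnajc3, an inhibitor of the stress kinase PERK and a BiP partner, also fell (-0.53 and -0.49). Dnajc14, which overlaps Sarnp on the same strand, was called lower in WT (-0.55) and not in KO-labelled libraries (-0.29, adjusted p 0.0695). Dnajc10, a disulfide reductase of the ER, was not called in WT (-0.07) and was called higher in KO-labelled libraries (0.18), which ended with median centring too.

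Of the remaining J-domain genes, Dnajb3 was called higher in both genotypes (1.33 and 1.64). Its libraries without peptide scattered, at 1.15, 1.13 and 0 in WT and 0.0445, 1.61 and 0.168 in those labelled KO, and the gene lies within Ugt1a genes of the opposite strand. Dnajc2, the ribosome-associated partner of Hspa14, rose in both (0.63 and 0.49). Dnajc7, a cochaperone that links HSP70 and HSP90, was 2.61, 2.57 and 2.60 in WT libraries without peptide and 0.985, 1.06 and 0.932 with gp33 (log2 fold change of -0.85, SE 0.11, adjusted p 5.2e-06) and also fell in those labelled KO (-0.52). Dnaja1 fell in both (-0.23 and -0.33), as did Dnajb6 (-0.21 and -0.23), whose promoter holds the 3-unit heat shock element. Dnaja2 (-0.26) and Dnajc5 (-0.27), the cysteine string protein of vesicles, were called lower in WT, and Dnajc9, a histone chaperone, was called higher in KO-labelled libraries (0.26). None of these 3 differed between genotypes in its response past the threshold. Dnajb1, the main HSP40 partner of inducible HSP70, was called in neither (-0.14 and 0.12), nor were Dnajc4 (0.04 and 0.17) or Dnajc8 (-0.00 and -0.21). Hspb6, the small HSP of the set, which overlaps Proser3 and Lin37 on the opposite strand, was called lower in WT (-0.41, adjusted p 0.0346) and higher in KO-labelled libraries (0.59, adjusted p 0.0053).

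**Figure D2:**
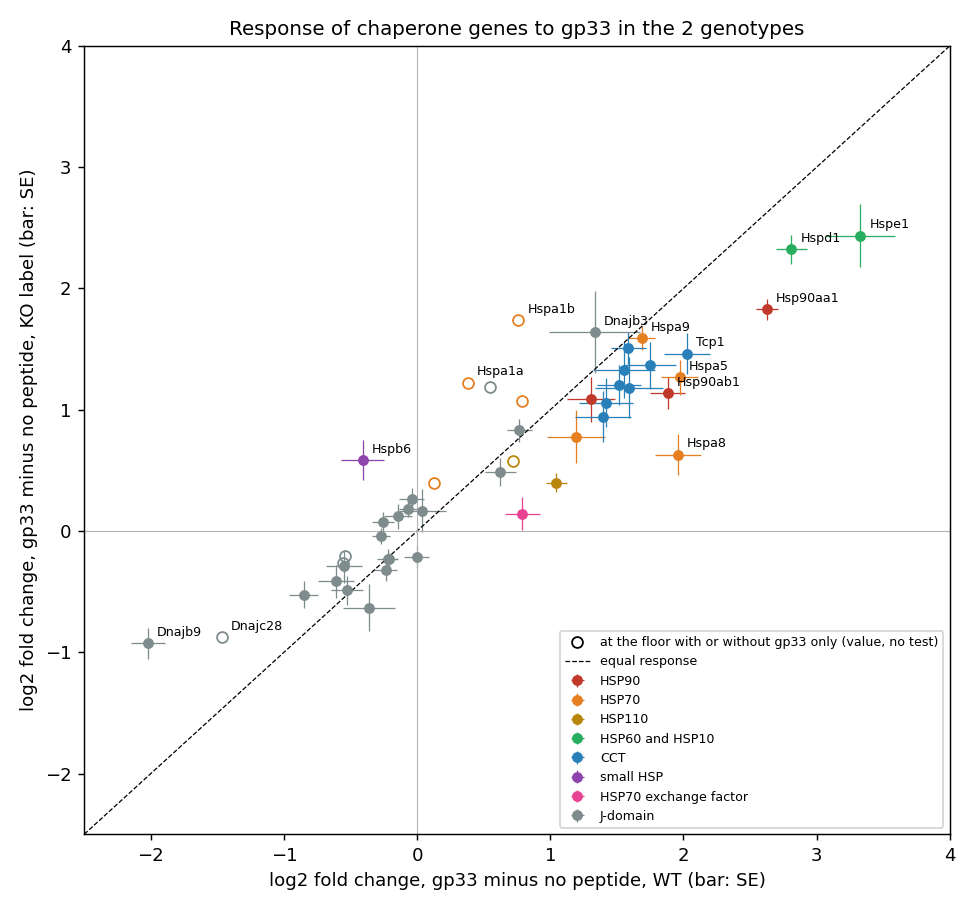
Log2 fold change of gp33 against no peptide in WT (x axis) and in libraries labelled KO (y axis) for members, with SE as bars; open circles are the 9 members at the floor on one side only. Hsp90aa1, Hspa8, Hspd1 and Hsph1 lie below the line of equal response, Dnajb9 and Hspb6 above it.

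The 9 members outside these counts are given by their values. Hspa1a and Hspa1b, the inducible HSP70 genes that HSF1 drives, reached the floor in the 3 KO-labelled libraries with gp33 and no inhibitor, and in no other library. Hspa1b was 2.89, 3.03 and 1.82 there, 0.778, 0.520 and 0.874 in WT with gp33, 0.455, 0.565 and 0.261 in KO-labelled libraries with inhibitor and 0.388, 0.268 and 0.312 in WT with inhibitor. Without peptide it was 0.0430, 0 and 0 in WT and 0.167, 0 and 0.0210 in those labelled KO. The floor took in Hspa1a and Hspa1b through these 3 libraries, so their place above the rest is part of how they were chosen. Hspa1a was 2.39, 1.05 and 1.02 in KO-labelled libraries with gp33 and 0.284, 0.232 and 0.452 in WT with gp33. The coding sequences of Hspa1a and Hspa1b are 99.4% identical, so reads of the pair could have been divided between them.

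Dnajb5, a J-domain gene of the cytosol, was 2.11, 2.42 and 1.77 in KO-labelled libraries with gp33 and 1.16, 1.22 and 0.753 in WT with gp33. With inhibitor it was 0.385, 0.381 and 0.519 in KO-labelled libraries and 0.478, 0.471 and 0.512 in WT, near the libraries without peptide, which ranged up to 0.679. Hspa2, Hspa4 and Hspa13 reached the floor only with gp33. Hspa4, the main HSP110 gene of the cytosol, was 0.602, 0.707 and 0.735 in WT libraries without peptide and 1.72, 1.82 and 1.75 with gp33, and 0.463, 0.757 and 0.559 without and 1.40, 1.29 and 1.43 with gp33 in those labelled KO. Hspa2, best known from testis, was 1.84, 1.64 and 1.29 in WT and 1.58, 1.84 and 1.20 in KO-labelled libraries with gp33. Hspa13, an HSP70 of microsomes, was 0.871, 0.801 and 0.828 and 1.24, 1.3 and 1.42 there. The J-domain genes Dnajb2, Dnajb4 and Dnajc28 reached the floor only without peptide. In WT Dnajc28 was 1.63, 2.70 and 2.82 without peptide and 0.260, 0.153 and 0.209 with gp33. Dnajb2, which acts with HSP70 in neurons, was 1.19, 1.41 and 1.23 without and 0.598, 0.567 and 0.532 with gp33, and Dnajb4 was 0.972, 1.17 and 1.33 without and 0.522, 0.432 and 0.442 with gp33. The floor took in these 3 genes through the libraries without peptide. It took in Dnajb5, Hspa2, Hspa4 and Hspa13 through libraries with gp33, so high values there are part of how these genes were chosen.

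Cofactor lists, also chosen with earlier results known, are counted over genes at the floor both with and without gp33, and are read against the shares of all genes given above, 42.1% higher and 31.6% lower with gp33 in WT and 41.1% and 27.3% in KO-labelled libraries. Cdc37l1, Ppp5c, Ero1a, Fkbp11 and Lonp1 reached it on one side only and enter no count. Of 21 cytosolic cochaperones 12 rose and 2 fell in WT with gp33 (median 0.54), led by Bag2 (2.28), Nudcd2 (1.89) and Stip1 (1.82), the Hop protein that joins HSP70 to HSP90. In KO-labelled libraries 11 rose and 2 fell, among them Nudcd2 (2.28) and the HSP90 cochaperone Ptges3 (1.47). Of 9 prefoldin and CCT cofactor genes 5 rose and 2 fell in WT, with Pfdn4 (1.06), Pfdn1 (0.94) and Pfdn6 (1.10) of smallest p. In those labelled KO 7 rose and 1 fell, with Pfdn4 (1.01) and Pfdn1 (0.86) higher and Pfdn5 (-0.87), another subunit of prefoldin, lower.

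Of 9 mitochondrial folding and protease genes 7 rose and 1 fell in WT, with Tomm20 (1.46), Htra2 (1.40) and Grpel1 (0.68), the exchange factor of Hspa9, of smallest p. In KO-labelled libraries 8 rose and 0 fell, with Htra2 (1.69), Tomm20 (1.33) and the protease Clpp (1.49). Of 21 ER folding genes 12 rose and 7 fell in WT, the latter near the share of all genes, led by Sdf2l1 (2.83), the disulfide isomerase P4hb (1.55) and calreticulin Calr (1.42). In KO-labelled libraries 11 rose and 1 fell, with P4hb (1.48) and Sdf2l1 (1.39) among those that rose. The ER oxidase Ero1a was 0.711, 0.526 and 0.750 in WT libraries without peptide and 4.73, 4.47 and 4.58 with gp33, and 0.422, 0.427 and 0.724 without and 2.85, 3.12 and 2.73 with gp33 in those labelled KO. The HSP90-bound phosphatase Ppp5c was 0.723, 0.990 and 0.811 without and 4.10, 3.87 and 3.45 with gp33 there.

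Of 5 unfolded protein response genes 2 rose and 2 fell in WT, and 3 rose and 1 fell in KO-labelled libraries. Ddit3 (CHOP), the pro-death factor of ER stress, fell in WT (-2.09) and in KO-labelled libraries (-0.59), and Atf4 rose (0.66 and 1.70). Xbp1 rose in both (0.62 and 0.35), while Ppp1r15a fell in WT (-0.44) and rose in KO-labelled libraries (0.65). Hsf1 itself was called in neither (-0.13 and 0.17), and Hsbp1, a small binder of HSF1, fell in both (-0.80 and -0.28), in KO-labelled libraries until a library was left out (adjusted p 0.0975 without replicate 1 of stimulated KO label).

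The next comparison asks whether stimulated cells differed by genotype. With gp33, the cytosolic HSP90 genes Hsp90aa1 and Hsp90ab1 and the constitutive HSP70 gene Hspa8 were lower in libraries labelled KO than in WT, while Dnajb9 was higher. The inducible HSP70 genes Hspa1a and Hspa1b, not tested, had their high values in the KO-labelled libraries. The floor took both in only through those libraries, so this order is part of how they were chosen. Of the 40 members 1 was called higher, against 14.9% of all genes, and 6 lower, against 9.09%. Their median was -0.18, against 0.00 over all genes. Leaving out replicate 2 of the WT cultures with inhibitor gave 4 higher and 15 lower, against 19.2% and 16.4% of all genes. With only the 6 libraries compared in the fit, 7 were called higher and 17 lower, against 21% and 17.7%. Rescaled to protein-coding genes, 4 were higher and 7 lower, against 27% and 9.12%. The CD8, myeloid and NK marker sums given above were also higher in these KO-labelled libraries, and their part was not tested.

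Hspa8 had the lowest log2 fold change of the 40, with KO-labelled libraries at 0.526 of the WT mean (log2 fold change of -0.94, SE 0.17, adjusted p 0.00112). Hsp90aa1 stood at 0.715 (log2 fold change of -0.48, SE 0.08, adjusted p 0.000892), Hsp90ab1 at 0.716 (log2 fold change of -0.48, SE 0.13, adjusted p 0.0158) and Hsph1 at 0.742 (log2 fold change of -0.32, SE 0.08, adjusted p 0.00886). Dnaja1, a J-domain partner of Hspa8, was 17.9, 19.2 and 17.7 in WT and 15.9, 13 and 13.3 in those labelled KO (log2 fold change of -0.36, SE 0.09, adjusted p 0.00818). In each of these 5 genes all 3 libraries labelled KO lay below all 3 WT libraries, as they did in 21 of the 40 members and in 25.6% of all genes. The reverse held in 9 of the 40 and in 30.1% of all genes. Dnajc8, a splicing factor of the nucleus, was lower too (-0.34), a call that ended without replicate 2 or 3 of stimulated WT or replicate 2 of stimulated KO label (adjusted p up to 0.0694). That of Hsp90ab1 ended without replicate 2 of stimulated WT or replicate 2 or 3 of stimulated KO label (adjusted p up to 0.0557). Dnajb9 was 1.80 times as high in libraries labelled KO (log2 fold change of 0.74, SE 0.13, adjusted p 0.000655), without overlap.

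In each of the 8 CCT genes the libraries labelled KO lay below the WT ones, as in 25.6% of all genes. In the fit of all 18 libraries none of them was called by limma. At an unadjusted p under 0.05 the count was 0 as well. Cct5, for example, was 69.6, 73.0 and 69.8 in WT and 61.3, 53.2 and 55.3 in those labelled KO (log2 fold change -0.32, adjusted p 0.179). With only the compared libraries in the fit 6 of the 8 were called lower, and 6 without replicate 2 of WT with inhibitor. That library had the highest value of its group in each CCT gene, for Cct5 67.4, 126 and 71.1 in replicates 1, 2 and 3. Hspd1 (-0.33) and Hspe1 (-0.50) were not called with all libraries, and both were called lower with the compared libraries alone. Members not called in the ER were Hspa5 (-0.31, adjusted p 0.13) and Hsp90b1 (0.01), and in mitochondria Hspa9 (0.18).

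**Figure D3:**
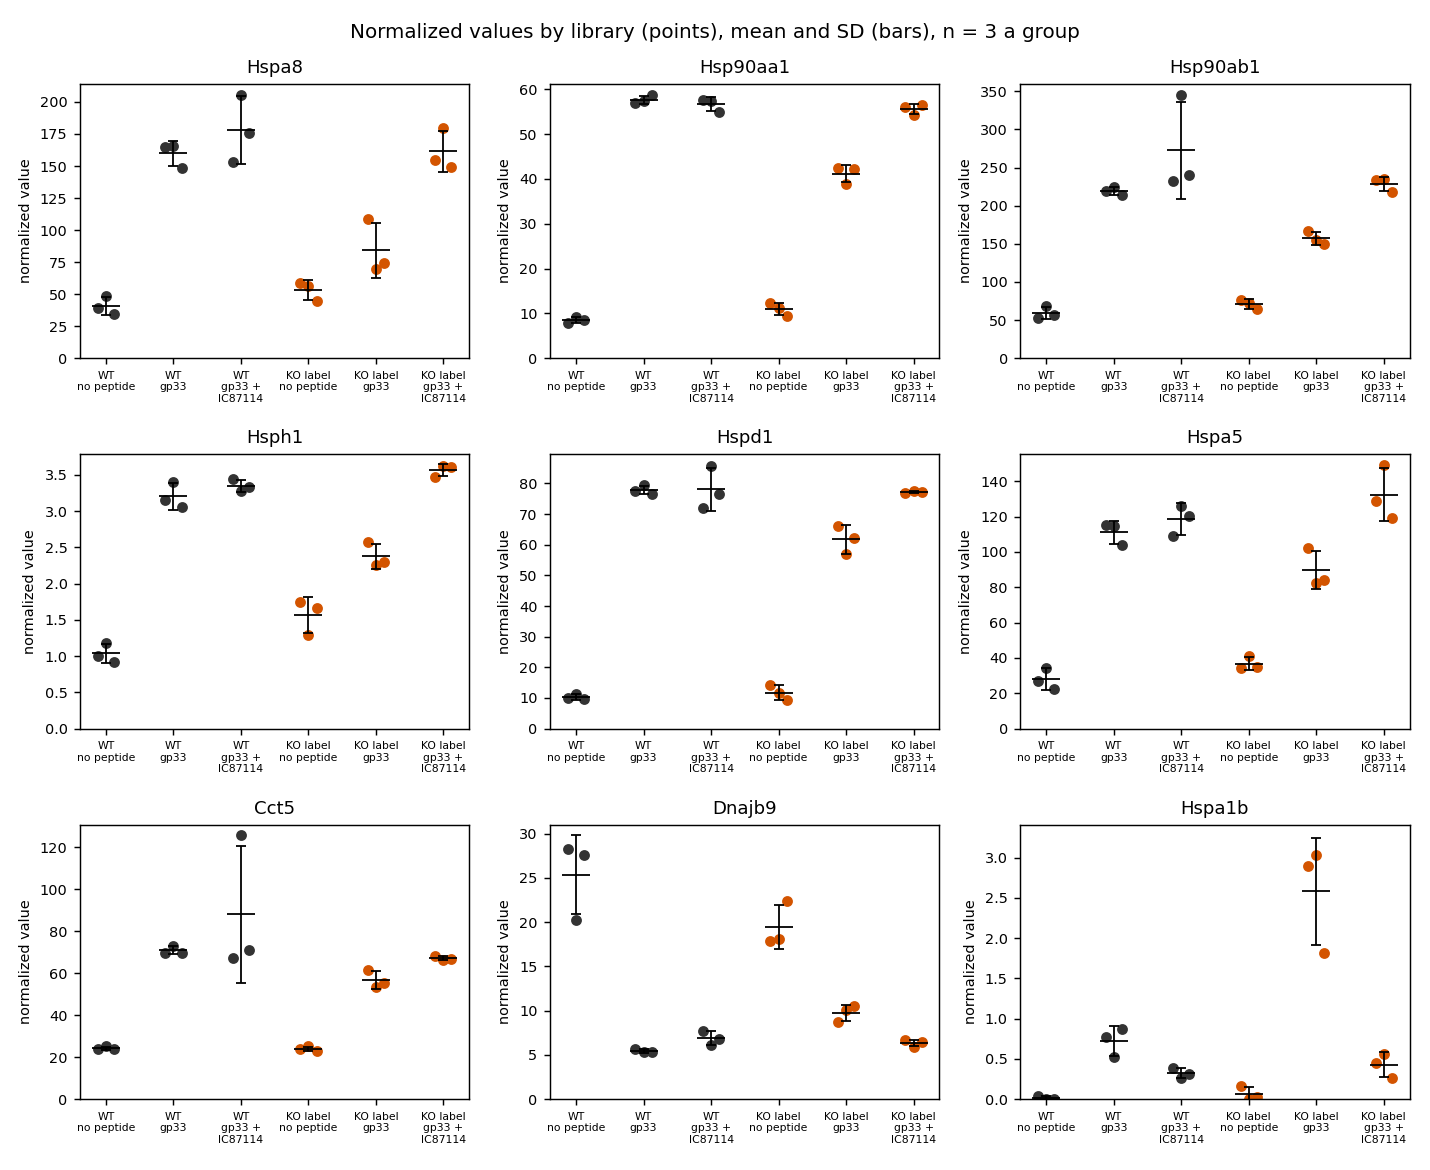
Normalized values of 9 members by library (points), with mean and SD as bars, in 6 groups of 3 libraries; black is WT and orange is labelled KO, and each axis starts at 0. With gp33 the KO-labelled libraries are lower for Hspa8, Hsp90aa1 and Hsp90ab1 and higher for Dnajb9. With IC87114 the genotypes lie close for the first 3. Hspa1b, not tested, passed the floor only through the KO-labelled libraries with gp33 alone, so its high values there are part of how it was chosen.

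The difference between genotypes in the gp33 response was tested directly. Of the 40 members 2 had a higher and 7 a lower response in KO-labelled libraries, against 15.7% and 9.6% of all genes. The largest was Hspa8 (log2 difference of responses -1.33, SE 0.24, adjusted p 0.00124). Lower responses were called for Hsp90aa1 (-0.80), Hsp90ab1 (-0.74), Hspa5 (-0.71), Hspbp1 (-0.65), Hsph1 (-0.65) and Hspd1 (-0.49). Higher ones were called for Dnajb9 (1.09) and Hspb6 (0.99). The call of Hspbp1 ended without replicate 1 of unstimulated WT or replicate 1 of unstimulated KO label or replicate 2 of stimulated KO label (adjusted p up to 0.0616), and that of Hspd1 ended without any 1 of 13 libraries (adjusted p up to 0.107, without replicate 2 of stimulated KO label). Rescaled to protein-coding genes the balance turned, with 7 higher and 6 lower, against 31.2% and 8.69% of all genes. Without replicate 2 of WT with inhibitor 5 were higher and 16 lower, against 20.3% and 17.5%, with 6 CCT genes among the latter. This contrast shares its libraries with the comparisons above and gives no independent view of them.

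Ddit3, Ppp1r15a and Atf4, listed with the unfolded protein response, were higher in stimulated libraries labelled KO. Hspa8 and the cytosolic HSP90 genes were lower there. Of 5 tested genes of that list these 3 were higher than in WT and 0 lower, against 14.9% and 9.09% of all genes. Xbp1 and Ppp1r15b were not called, and no sensor of the response was among the 5. The ER chaperones Hspa5 and Hsp90b1 were not called in this comparison. Ddit3 was 2.28, 2.69 and 1.90 in WT and 8.02, 7.96 and 9.22 in those labelled KO (log2 fold change of 1.52, SE 0.09, adjusted p 3.33e-08). Ppp1r15a (GADD34), which ends the block on translation, was 16.4, 15.8 and 14.7 and 37.2, 36.6 and 38.3 (log2 fold change of 1.21, SE 0.11, adjusted p 2.55e-06), and Atf4 was 69.9, 69.6 and 66.5 and 108, 106 and 109.9 (log2 fold change of 0.64, SE 0.10, adjusted p 0.000403). In Ddit3, Ppp1r15a and Atf4 all KO-labelled libraries lay above all WT ones, as in 30.1% of all genes. Their responses to gp33 differed between genotypes (1.5, 1.09 and 1.03).

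In the same comparison 6 of 21 ER folding genes were higher in KO-labelled libraries and 1 lower, to be read, like the lists that follow, against the same 14.9% and 9.09%. Selenos (0.62) and Herpud1 (0.63), of ER-associated degradation, and Sdf2 (0.49), a partner of ER chaperones, had the smallest p. Hsf1 was higher (log2 fold change of 0.31, SE 0.10, adjusted p 0.0306), a call that ended without replicate 2 or 3 of stimulated WT or replicate 1 or 2 of stimulated KO label (adjusted p up to 0.147). Hsbp1 was higher (0.31) until a library was left out (adjusted p up to 0.13 without replicate 3 of stimulated KO label). Of 21 cytosolic cochaperones 1 was higher and 4 lower, with Bag2 (-0.85) and Nudcd2 (0.53) of smallest p, and Ppp5c was 2.62, 2.67 and 2.26 in WT and 4.10, 3.87 and 3.45 in those labelled KO. Of 9 prefoldin and CCT cofactor genes 1 was higher, Pdcl (0.83), a phosducin-like partner of CCT. Lower was 1, Pfdn2 (-0.39, adjusted p up to 0.167 without replicate 2 of stimulated KO label), while Pfdn6 was not called (-0.29). Of 9 mitochondrial genes 0 were called by limma and 2 had an unadjusted p under 0.05, with Clpp (0.37), Htra2 (0.30) and Grpel2 (0.18) of smallest p.

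For the gp33 response itself, further genotype differences were called for Sdf2l1 (-1.44), Selenos (0.79), Herpud1 (0.93), Pdcl (0.98), Vbp1 (0.43) and Hsbp1 (0.52). Those of Bag2 (-0.70, adjusted p up to 0.0882 without replicate 2 of stimulated KO label) and the HSP90 activator Ahsa1 (-0.57, adjusted p up to 0.11 without replicate 2 of stimulated KO label) were called until a library was left out. Those of Hsf1 (0.30), Pfdn2 (-0.43), Yme1l1 (0.34), Grpel2 (0.32) and Pam16 (-0.34) were not called.

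**Figure D4:**
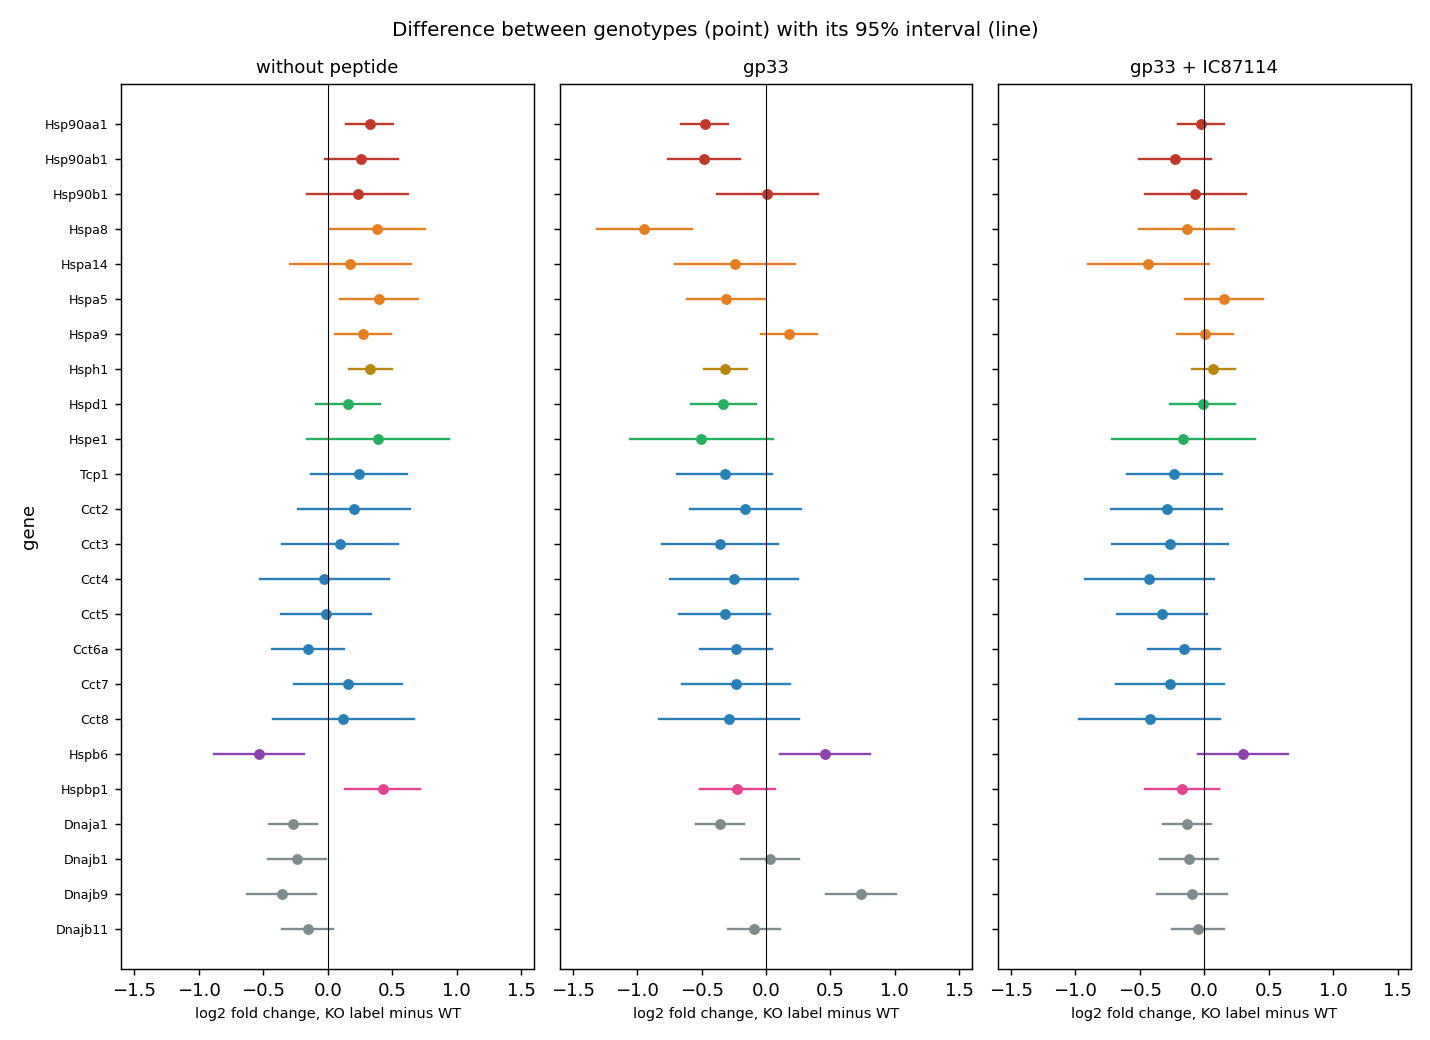
Log2 fold change of libraries labelled KO against WT (points) with 95% intervals (lines) without peptide, with gp33, and with gp33 and IC87114, for tested members outside the J-domain family and 4 J-domain genes. With gp33 the intervals of the called genes Hspa8, Hsp90aa1, Hsp90ab1, Hsph1 and Dnaja1 lie below 0 and that of Dnajb9 above it. Intervals are not adjusted, and those of some genes not called, such as Hspd1, leave out 0 too.

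Without peptide the genotypes differed in few members, at shares near those of all genes. Of the 40, 2 were higher in libraries labelled KO, against 5.69% of all genes, and 3 lower, against 7.23%. Hsp90aa1 was 1.29 times as high (log2 fold change of 0.33, SE 0.08, adjusted p 0.0192) and Hsph1 1.51 times (log2 fold change of 0.33, SE 0.08, adjusted p 0.0113). Lower were Hspb6 (-0.54), Dnaja2 (-0.31) and Dnajc9 (-0.33). All 5 calls ended when 1 library was left out. That of Hsp90aa1 ended without replicate 1 or 3 of unstimulated WT or replicate 1 or 2 of unstimulated KO label (adjusted p up to 0.0843), that of Hsph1 without replicate 1 of unstimulated KO label (adjusted p 0.0522) and that of Hspb6 without any 1 of 12 libraries (adjusted p up to 0.146, without replicate 2 of unstimulated WT). That of Dnaja2 ended without replicate 1 or 3 of unstimulated WT or replicate 2 of unstimulated KO label (adjusted p up to 0.0914) and that of Dnajc9 without replicate 1 or 3 of unstimulated WT or replicate 3 of unstimulated KO label (adjusted p up to 0.109). With only the 6 compared libraries in the fit the count was 0 by limma, against 2.94% of all genes higher and 1.6% lower, and 8 had an unadjusted p under 0.05. Without replicate 2 of WT with inhibitor 6 were higher and 4 lower, against 8.94% and 11.5%.

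Among cofactors without peptide, ER folding genes Sdf2l1 (1.02), Calr (0.56) and Manf (0.32) were higher in libraries labelled KO, 3 of 21 against 5.69% of all genes, and Atf4 (-0.39) and Vbp1 (-0.31) lower. Calls of Manf (adjusted p up to 0.12 without replicate 2 of unstimulated KO label), Atf4 (0.0899 without replicate 2 of unstimulated KO label) and Vbp1 (0.0995 without replicate 3 of unstimulated WT) ended when a library was left out. Not called were Hsf1 (0.01), Hsbp1 (-0.21), Cdc37l1 (-0.18), Fkbp8 (0.24), Ahsa2 (-0.22), Pdcl3 (-0.16), Pfdn6 (0.26), Ppp1r15b (-0.15), Xbp1 (0.15), Tomm70a (-0.20), Pam16 (0.30) and Yme1l1 (-0.25). The ranges of other cell types' markers in these groups are given above, and their part in these differences was not tested.

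With gp33 and IC87114 no member was called between genotypes, where few of all genes were. The WT group here holds replicate 2, which stood apart. By limma 0 of the 40 members were called in either direction, against 2.01% of all genes higher and 2.61% lower, and 2 had an unadjusted p under 0.05, Dnajc9 (-0.29) and Dnajc30 (0.37), named after their values were seen. With only the compared libraries 0 were called by limma, against 0.653% and 0.409% of all genes, and 1 had an unadjusted p under 0.05. Hsp90aa1 was 57.7, 57.5 and 55.0 in WT and 56.1, 54.4 and 56.5 in those labelled KO, and the groups overlapped. Its log2 fold change was -0.03, with a 95% interval of -0.21 to 0.15, and was -0.48 with gp33 alone. For Hspa8 the interval was -0.50 to 0.23 and for Dnajb9 -0.36 to 0.17. Their log2 fold changes with gp33 alone were -0.94 and 0.74. The values with gp33 alone have errors of their own, so these intervals do not test a change. The direct test is the genotype difference in the response to IC87114, given below.

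Of the cofactors in this comparison, Bag1, a nucleotide exchange factor of HSP70, was 9.82, 12.8 and 9.98 in WT and 1.31, 2.38 and 7.83 in those labelled KO (log2 fold change of -1.53, SE 0.39, adjusted p 0.0361), lower until a library was left out (adjusted p up to 0.168 without replicate 1 of inhibitor-treated KO label). Atf4 was higher (0.39, adjusted p up to 0.197 without replicate 1 of inhibitor-treated KO label). Ero1a was 3.24, 4.71 and 3.04 in WT and 1.75, 2.03 and 2.00 in those labelled KO. Not called, though of smallest p in their lists, were Hsf1 (0.02), Hsbp1 (-0.24), Bag2 (-0.48), Nudcd2 (0.31), Pdcl3 (-0.21), Pdcl (0.19), Pfdn5 (-0.23), Selenos (0.24), Fkbp11 (0.34), Ppp1r15b (0.33), Xbp1 (0.25), Grpel2 (0.23) and Htra2 (0.15).

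The last comparison asks what the PI3K delta inhibitor changed in stimulated cells. In libraries labelled KO it raised Hspa8 and the cytosolic HSP90 genes and lowered Hspa9 and Dnajb9. Of the 40 members 10 were higher with IC87114, against 9.17% of all genes, and 5 lower, against 19.3%. The median was 0.14 over the 40 and -0.04 over all genes. Median centring gave 11 higher and 2 lower, against 15.3% and 11.8%, so that among all genes more were then higher than lower. Rescaling to protein-coding genes gave 9 higher and 7 lower, against 6.45% and 39%. This comparison and that of genotypes with gp33 share the 3 stimulated KO-labelled libraries, so a high or low value there enters both.

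Hspa8 rose from 108, 69.8 and 74.0 to 155, 180.0 and 149 in KO-labelled libraries (log2 fold change of 0.96, SE 0.17, adjusted p 0.000797). Hsp90aa1 rose from 42.4, 38.9 and 42.3 to 56.1, 54.4 and 56.5 (log2 fold change of 0.43, SE 0.08, adjusted p 0.00161). Hsp90ab1 (0.54), Hspa5 (0.56), Hsph1 (0.44), Dnaja1 (0.50), Dnajb6 (0.23), Dnajc3 (0.36) and Dnajc8 (0.27) rose too. In Hspa8 and Hsp90aa1 every library with inhibitor lay above every library without it, as in 20 of the 40 members and 25.5% of all genes. Lower were Hspa9 (log2 fold change of -0.55, SE 0.10, adjusted p 0.00102), Dnajb9 (log2 fold change of -0.55, SE 0.13, adjusted p 0.0046), Dnajc5 (-0.31), Dnajc7 (-0.32) and Dnajc30 (-0.38). Hspa9 went from 17.1, 14.7 and 15.0 to 10.4, 10.2 and 10.4, the direction opposite to that of Hspa8. The calls of Dnajc3 (adjusted p up to 0.115 without replicate 2 of stimulated KO label), Dnajc7 (0.121 without replicate 1 of stimulated KO label), Dnajc8 (0.149 without replicate 2 of stimulated KO label) and Dnajc30 (0.127 without replicate 1 of stimulated KO label) ended without any 1 of 6, 13, 12 and 15 libraries. With only the 6 compared libraries 16 were higher and 7 lower, against 20% and 28.2% of all genes.

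In WT the inhibitor changed few members, as it did few of all genes. By limma 1 of the 40 was higher, Dnajc3 (log2 fold change of 0.48, SE 0.12, adjusted p 0.0218), against 3.31% of all genes, and 1 lower, Hspa9 (log2 fold change of -0.37, SE 0.10, adjusted p 0.037), against 5.15%. Hspa9 was 13.7, 14 and 13.2 with gp33 and 9.02, 12.4 and 9.80 with gp33 and inhibitor, so its direction was that in KO-labelled libraries. The call of Dnajc3 ended without replicate 1, 2 or 3 of stimulated WT (adjusted p up to 0.0744) and that of Hspa9 without any 1 of 8 libraries (adjusted p up to 0.127, without replicate 2 of stimulated WT). With only the compared libraries the count was 0 by limma, against 0.624% of all genes higher and 1.94% lower, with 6 at an unadjusted p under 0.05. Without replicate 2 of WT with inhibitor 1 was higher and 3 lower, against 4.13% and 5.03%. Median centring gave 3 higher and 0 lower, against 5.74% and 2.98%, and rescaling to protein-coding genes 1 higher and 3 lower, against 5.12% and 9.84%.

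Whether the response to IC87114 differed between genotypes was tested as well. Of the 40 members 3 had a higher response in KO-labelled libraries, against 3.27% of all genes, and 1 a lower one, against 6.47%. These were Hspa8 (0.81, adjusted p 0.0497), Hsp90aa1 (0.45, adjusted p 0.0286) and Hsph1 (0.39, adjusted p 0.0405), and Dnajb9 (-0.83, adjusted p 0.0087). The first 3 ended without any 1 of 13, 8 and 10 libraries, with adjusted p of up to 0.132 without replicate 2 of stimulated KO label for Hspa8, 0.083 without replicate 2 of stimulated KO label for Hsp90aa1 and 0.107 without replicate 2 of stimulated WT for Hsph1. Dnajb9 stayed called without each library in turn. Rescaled to protein-coding genes, 2 were higher and 3 lower, against 2.64% and 16.9% of all genes.

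Inhibitor changes among cofactors in KO-labelled libraries included 4 of 5 unfolded protein response genes lower, against 19.3% of all genes, Ddit3 (-1.45), Ppp1r15a (-1.21) and Atf4 (-0.48) with the smallest p. Ddit3 went from 8.02, 7.96 and 9.22 to 2.28, 2.34 and 2.65, within the range of the stimulated WT libraries. Hsf1 was lower (log2 fold change of -0.37, SE 0.10, adjusted p 0.00913) and Hsbp1 was not called (-0.26). Of 21 ER folding genes 3 were higher and 5 lower, against 9.17% and 19.3% of all genes here and in the lists that follow, with Herpud1 (-0.97) lower and Erp29 (0.36) higher, and Fkbp11 went from 2.31, 1.40 and 1.99 to 0.977, 0.728 and 0.942. Cytosolic cochaperones gave 1 higher and 3 lower of 21, with Nudcd2 (-0.52) and Bag4 (-0.33) lower, and Ppp5c went from 4.10, 3.87 and 3.45 to 1.82, 1.86 and 1.90. Pdcl was lower (-0.99), and Pfdn6 (0.42) and Txndc9 (-0.21) were not called. Of 9 mitochondrial genes 2 were lower, Htra2 (-0.64) and Clpp (-0.56, until a library was left out, adjusted p up to 0.0539 without replicate 3 of inhibitor-treated KO label), and Lonp1 went from 1.45, 1.24 and 1.29 to 0.670, 0.794 and 0.864.

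In WT with inhibitor P4hb (-0.35, adjusted p up to 0.181 without replicate 1 of stimulated WT) and Htra2 (-0.50, 0.0955 without replicate 1 of stimulated WT) were lower and Sdf2 (0.28, 0.103 without replicate 2 of stimulated WT) and Stub1 (0.48, 0.1 without replicate 3 of stimulated WT), the CHIP ubiquitin ligase, higher, each until a library was left out. Fkbp11 went from 1.57, 2.12 and 1.85 to 0.438, 0.591 and 0.424. Not called there were Hsf1 (-0.09), Hsbp1 (0.28), Bag2 (-0.49), Nudcd2 (-0.30), Pdcl (-0.34), Pfdn5 (0.38), Pfdn1 (0.17), Ppp1r15b (-0.39), Atf4 (-0.22), Ddit3 (0.02), Pam16 (-0.28) and Tomm70a (-0.12). The genotype difference in this response was called for Ddit3 (-1.47), Ppp1r15a (-1.22), Herpud1 (-0.83), Sdf2 (-0.56), and, until a library was left out, for Selenos (-0.39, adjusted p up to 0.084 without replicate 3 of stimulated WT), Hsbp1 (-0.55, 0.0733 without replicate 2 of inhibitor-treated KO label) and Pdcl (-0.65, 0.0872 without replicate 3 of inhibitor-treated KO label). It was not called for Hsf1 (-0.29), Fkbp8 (-0.30), Bag4 (-0.22), Pdcl3 (-0.37), Pfdn2 (0.22), Xbp1 (0.37), Clpp (-0.38) or Yme1l1 (-0.17).

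In each library 54.0% to 66.8% of all values summed lay on processed pseudogenes. Because values fall with gene length, this is not a share of reads. Reads of chaperone genes could also have been placed on their copies, which was not tested. Of 33 copies, 13 were at the floor in all 18 libraries. With gp33, 12 of these were called higher and 1 lower in WT, against 42.1% and 31.6% of all genes, and the same counts held in KO-labelled libraries, against 41.1% and 27.3%. On the log2 scale Tcp1-ps1 rose by 1.95 in WT and Tcp1 by 2.03. Hspd1-ps3 rose by 2.67 and Hspd1 by 2.81. Dnajc19-ps rose by 0.71 where Dnajc19 fell by 0.22.

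**Figure D5:**
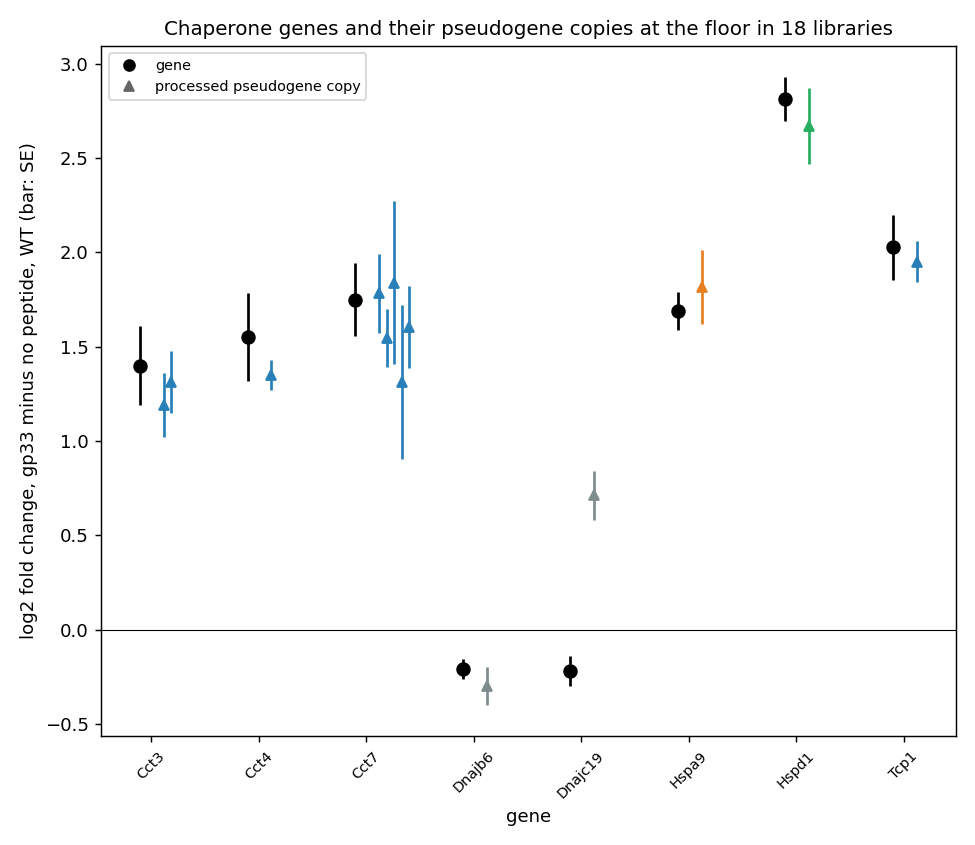
Log2 fold change of gp33 against no peptide in WT, with SE as bars, for 8 chaperone genes (black circles) and their 13 processed pseudogene copies at the floor in all 18 libraries (triangles). Copies lie near their genes except for Dnajc19, where the copy is above 0 and the gene below it.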

How the data were processed

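Stranded polyA RNA-seq libraries of 18 cultures were analysed as the authors' deposited table of normalized values on a log scale. The log base, offset, normalization, aligner, counter and counting strand are not stated, and none is given in the sources used here. The deposited values, whose lowest is exactly 0, were read as log2(normalized value + 1), and the submitters' processing notes name GRCm38 and GRCm39. Values were turned back to a linear scale, genes at 1 or more in 3 or more libraries were kept, and log2(value + 1) was fitted with limma 3.58.1 (trend and robust, statmod 1.5.0, R 4.3.3). The fit used all 18 libraries with 1 mean a group and 12 residual degrees of freedom, 9 contrasts and Benjamini-Hochberg adjustment over 10257 genes, with calls at adjusted p under 0.05, and was tested on simulated data. Each contrast was also fitted without each library in turn, with an offset of 0.1, a floor of 5, no filter, rescaling to protein-coding genes, median centring, only the groups compared, no trend, replicate blocks and genes summed with their copies. Depth is unknown, so no counting interval is given.

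Same-numbered libraries of the other genotype did not deviate together. Within a genotype the same number is the same first letter of the library name, and 4 of 18 such pairs correlated above 0.1. Whether libraries of 1 letter share a source is not stated. Neither number nor letter entered a main test, and fits with a block on either are described below. Members outside the J-domain family were named, except 1 that is not reported here. Of the J-domain members those called were named in each comparison, up to 5 at either end of the log2 fold changes, and of each list the 3 genes with the smallest p. Members and lists were chosen with earlier results of these data known. Promoters are RefSeq sequences on GRCm38.p6, overlaps and coding sequences come from GENCODE M21, and figures and tables were made with Python 3.11.15 (pandas 2.3.3, numpy 2.4.6, scipy 1.17.1, matplotlib 3.10.9).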

Additional observations from a re-analysis of the deposited data

Results flagged for a closer look

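The genotypes differed in their response to gp33 in 9 members, by the interaction term of the limma model, 2 higher and 7 lower of 40, against 15.7% and 9.6% of all genes. In either direction 2595 of 10257 genes differed, a share not below that of the members. Rescaled to protein-coding genes 7 members were higher and 6 lower, against 31.2% and 8.69% of all genes. Calls of Hspbp1 and Hspd1 ended when a library was left out. The log2 difference of responses, KO label minus WT, was -1.33 for Hspa8, -0.80 for Hsp90aa1, -0.74 for Hsp90ab1, -0.71 for Hspa5, -0.65 for Hsph1, -0.65 for Hspbp1 and -0.49 for Hspd1. It was 1.09 for Dnajb9 and 0.99 for Hspb6.

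In 4 members the response to IC87114 differed as well, 3 higher and 1 lower, against 3.27% and 6.47% of all genes, and those of Hspa8, Hsp90aa1 and Hsph1 ended when a library was left out. The difference was 0.81 for Hspa8, 0.45 for Hsp90aa1, 0.39 for Hsph1 and -0.83 for Dnajb9. Both sets of differences use the same stimulated libraries, so they are not independent of each other.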

How the results depend on the processing

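Counts of members and genes called are given in the order of the comparisons as KO label against WT without peptide, with gp33 and with inhibitor, gp33 in WT and in KO-labelled libraries, inhibitor in WT and in KO-labelled libraries, and the genotype difference in the response to gp33 and to inhibitor. Over all genes they were 1326, 2457, 474, 7558, 7025, 868, 2917, 2595 and 999. When 1 library was left out these ranged over 1003 to 2101, 1582 to 3647, 261 to 544, 7066 to 8182, 6486 to 7697, 433 to 995, 2029 to 4053, 1965 to 3882 and 569 to 1477. The members called ranged over 1 to 10, 5 to 19, 0 to 0, 31 to 35, 31 to 35, 0 to 4, 10 to 20, 7 to 21 and 1 to 6. The high ends for members of the genotype comparisons without peptide and with gp33, of both inhibitor comparisons and of both responses came without replicate 2 of WT with inhibitor.

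With no filter, the genes called moved to 2546 (KO label against WT without peptide), 3755 (with gp33), 12251 (gp33 in WT), 11430 (gp33 in KO-labelled libraries), 4389 (inhibitor in KO-labelled libraries) and 4123 (response to gp33), and members with inhibitor in WT to 1. A floor of 5 gave, in the same order, 697, 1468, 4267, 4050, 1736 and 1429 genes, 660 for the response to inhibitor, and 3 members without peptide. These 2 settings test more and fewer genes. Rescaling to protein-coding genes gave 4593 and 4514 genes for gp33, and 8, 11, 1 and 4 members for the 3 genotype comparisons and for inhibitor in WT. With only the groups compared there were 466, 3968 and 109 genes for the 3 genotype comparisons and 263 and 4947 for inhibitor, and members moved to 0 without peptide, 24 with gp33, 0 for inhibitor in WT and 23 for inhibitor in KO-labelled libraries. An offset of 0.1 gave 2 members for the response to inhibitor. The cause of these moves was not tested.

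Summing Dnajc19 with its named copies, of which Dnajc19-ps rose, gave a change with gp33 of 0.71 in WT and 0.39 in KO-labelled libraries. Because values depend on gene length, this sum does not weigh gene and copies by reads. Median centring shifted the log2 fold changes of gp33 in KO-labelled libraries by -0.15 and of inhibitor there by 0.12, and rescaling shifted the former by 0.11.

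Replicate numbers did not pair the libraries across genotypes: 27 pairs with the same number in the other genotype correlated at -0.37 to 0.08. Sorted by library letter, 18 pairs correlated at -0.03 to 0.22, and only 4 exceeded 0.1. A block on the letter gave 2 members for the response to inhibitor, against 4 without it. A block on the number ended the calls of Hspb6 without peptide and with gp33 in WT, Dnajc3 and Dnajc30 with inhibitor in KO-labelled libraries, Hspd1 in the response to gp33 and Hsph1 in the response to inhibitor. Unknown depth leaves low members, such as Hspa1a, without a detection limit.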
